A study of Mus musculus with 12 samples.

Results

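In thymocytes of mice with a floxed Zfat gene, 333 of 2388 H3K9me3 peaks (13.9%, 12.6 to 15.4%) overlapped a peak of another ChIP-seq list by 1 bp or more. They are described here by which list they met: a list for the zinc-finger protein ZFAT, a list for acetylated histone H3 (lysines 9 and 27, H3K9ac/K27ac), or both. The lists hold 21883 peaks in all. Overlap chose these peaks, so the counts of overlap are descriptions and carry no test. Percentages are followed by exact Clopper-Pearson 95% intervals, which cover counting error only.

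Trimethylation of lysine 9 of histone H3 is written by enzymes of the SUV39H and SETDB1 families and read by heterochromatin protein 1, and it marks silenced chromatin and repeats. Acetylation of lysines 9 and 27 marks active promoters and enhancers. A single lysine 9 cannot be acetylated and trimethylated at once, but a nucleosome carries a pair of H3 tails, and a ChIP library pools many cells and both alleles. ZFAT is a nuclear protein with zinc fingers and an AT-hook that developing T cells need.

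The series held 12 samples of thymocytes, T cells still maturing in the thymus, taken from mice aged 4 to 5 weeks. Of these, 6 were ChIP libraries, 1 per group, and the other 6 were input or IgG controls, whose own reads were not analysed here. Zfatf/f-LckCre thymocytes (Lck-Cre), in which Cre driven by Lck is meant to delete floxed Zfat in the T lineage, gave ZFAT and H3K9ac/K27ac libraries. Zfatf/f thymocytes (floxed), which carry the floxed gene, gave ZFAT, H3K9ac/K27ac and H3K9me3 libraries. C57BL/6 thymocytes (B6) gave 1 ZFAT library, called once against input and once against IgG, so that 6 ChIP libraries made 7 lists. Cells were fixed with 1% formaldehyde for 10 min and cut for 0.5 h with micrococcal nuclease (375 units), which leaves fragments near the size of a nucleosome. How far Zfat was deleted cannot be read from the lists. H3K9me3 was profiled in floxed thymocytes alone, so overlap with an Lck-Cre or B6 peak compares different animals.

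Coordinates refer to the mouse build mm9. Each peak has a fold and a P score (−log10 of p) from the authors' caller. The pileup, which is the number of ChIP fragments stacked at a summit, and the background, which is the control level scaled to the ChIP library, were inferred from both. The lowest backgrounds implied between 1340000 and 2230000 ChIP fragments in each floxed and Lck-Cre library, the H3K9me3 library being the deepest, and 632000 in the B6 library. With 1 library per group there is no replicate error, so every comparison is between libraries.

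Of the 333 peaks, 208 (62.5%, 57.0 to 67.7%) met ZFAT lists only, 111 (33.3%, 28.3 to 38.7%) met acetylation lists only and 14 (4.20%, 2.32 to 6.95%) met both kinds, which is 0.586% of all H3K9me3 peaks. The larger share of ZFAT rests on the B6 library: without it, 80 H3K9me3 peaks met ZFAT and 125 acetylation, and with B6 peaks held by both controls, 86 met ZFAT. In all, 222 H3K9me3 peaks (9.3% of 2388) met a ZFAT list and 125 (5.23%) met an acetylation list. Among the ZFAT lists, 8 H3K9me3 peaks (0.335%) met Lck-Cre, 77 (3.22%) met floxed, 145 (6.07%) met B6 against input and 17 (0.712%) met B6 against IgG. Among the acetylation lists, 22 (0.921%) met Lck-Cre and 105 (4.4%) met floxed. The list met most often was the B6 list called against input, which comes from the shallowest library.

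Read from the side of the other lists, acetylation was the least shared. The H3K9me3 list was met by 22 of 2225 Lck-Cre H3K9ac/K27ac peaks (0.989%, 0.621 to 1.49%) and by 105 of 13016 floxed H3K9ac/K27ac peaks (0.807%, 0.660 to 0.976%). It was met by 10 of 108 Lck-Cre ZFAT peaks (9.26%, 4.53 to 16.4%), 77 of 1719 floxed ZFAT peaks (4.48%, 3.55 to 5.57%) and 146 of 2000 B6 ZFAT peaks called against input (7.3%, 6.20 to 8.53%). The B6 list called against IgG gave 17 of 427 peaks (3.98%, 2.34 to 6.30%). The intervals of all 4 ZFAT lists lay above those of both acetylation lists. For Lck-Cre ZFAT this rests on H3K9me3 peaks with a high control background (defined below), which held all 10 of its overlapping peaks. Lck-Cre ZFAT met 0 of the 2370 H3K9me3 peaks of lower background. Of the 10 overlapping peaks, 3 lay inside the same H3K9me3 peak of 2700 bp, so they are not independent counts for the interval.

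Most overlaps came from 1 library, but most peaks of several whole lists did not recur either. Of all floxed ZFAT peaks, 8.26% met a B6 peak called against input and 1.8% an Lck-Cre ZFAT peak. Of all floxed H3K9ac/K27ac peaks, 12.3% met an Lck-Cre one. Higher shares were 75% of Lck-Cre H3K9ac/K27ac peaks meeting a floxed one and 25.8% of floxed ZFAT peaks meeting floxed H3K9ac/K27ac. A single ChIP library accounted for the overlap at 304 of the 333 peaks (91.3%, 87.7 to 94.1%), a pair of libraries at 24, and 3 libraries at 5. B6 ZFAT was the sole library at 133 peaks, floxed H3K9ac/K27ac at 93 and floxed ZFAT at 61. Lck-Cre H3K9ac/K27ac was the sole library at 16 and Lck-Cre ZFAT at 1. Without the B6 library, 200 of 2388 H3K9me3 peaks met another list. Without the floxed H3K9ac/K27ac library, 22 H3K9me3 peaks met an acetylation list.

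**Figure D1:**
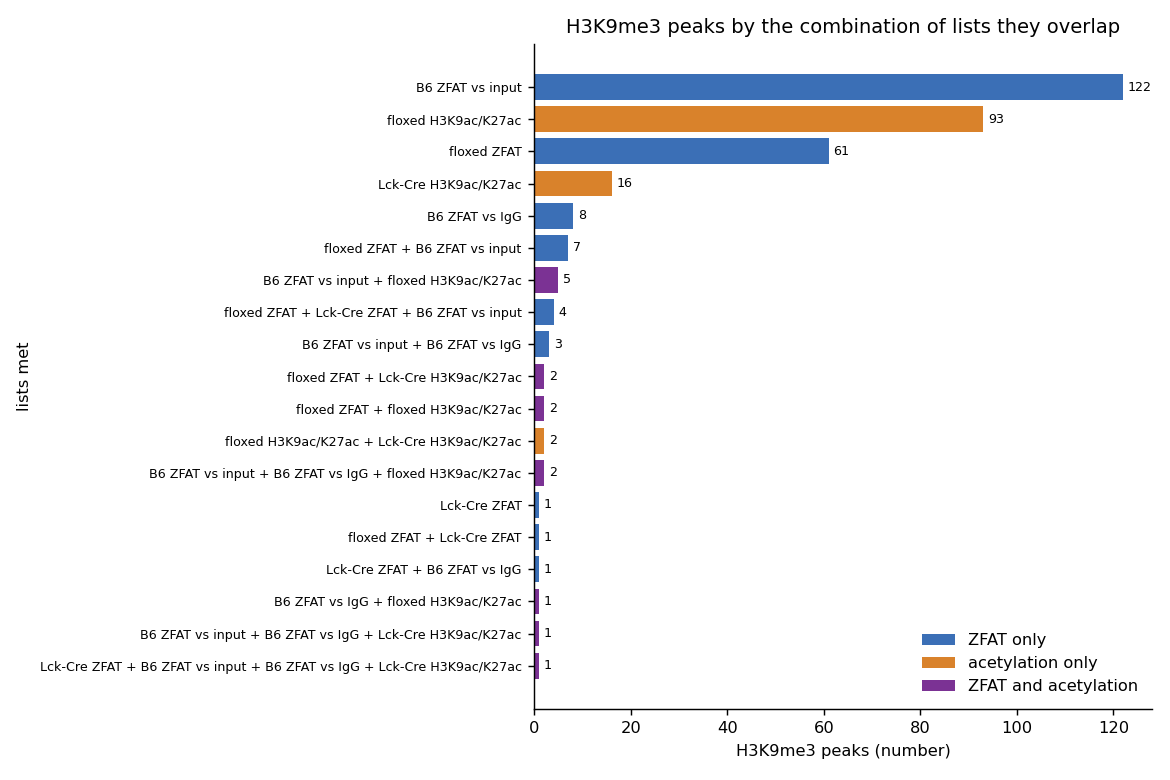
Number of H3K9me3 peaks for each of the 19 combinations of lists met, coloured by class. The 3 longest bars, B6 ZFAT against input with 122 peaks, floxed H3K9ac/K27ac with 93 and floxed ZFAT with 61, each stand for a single list.

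Most of the overlaps covered the larger part of the H3K9me3 peak. Over the 377 overlapping pairs of an H3K9me3 peak and a partner, the shared bases made up a median of 80.4% of the union. The summits were a median of 20 bp apart, and 303 of 377 pairs (80.4%, 76.0 to 84.3%) had summits within 50 bp. In 348 pairs (92.3%) the partner covered at least 50% of the H3K9me3 peak. The pairs were chosen for overlap and most peaks are short, which limits how far apart their summits can lie. How much of the closeness comes from the rule was not tested.

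Few of the remaining H3K9me3 peaks came close. Of the other 2055, 34 (1.65%, 1.15 to 2.30%) lay within 1 kb of any peak of the other 6 lists, and 2 of those within 100 bp. Their median gap was 131724 bp. The peak just inside the rule, chr17:55253963-55254417, shared 23 bp with a floxed ZFAT peak. The peak just outside it, chr19:39323465-39323664, ended 18 bp from a B6 ZFAT peak called against input.

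**Figure D2:**
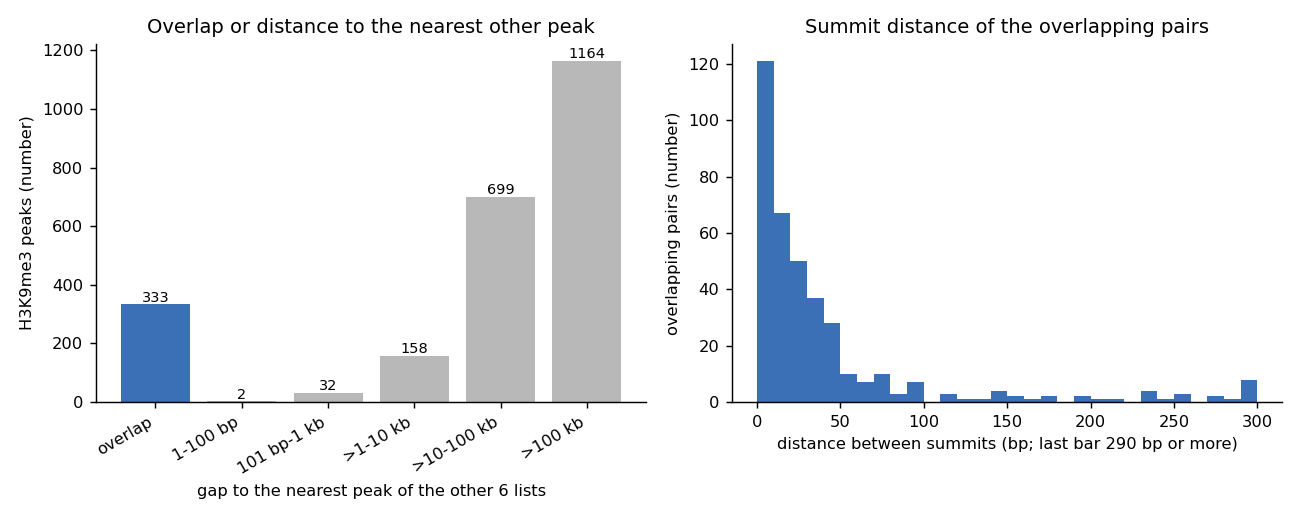
Left, number of H3K9me3 peaks that overlap another list (333) or lie at a given gap from its nearest peak. Right, distance in bp between the summits of the 377 overlapping pairs. Only 34 peaks fall in the bands up to 1 kb, and most summit distances are in the bars up to 50 bp.

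In their own H3K9me3 signal the 333 peaks lay close to the other 2055. The median fold was 5.48 in the overlapping peaks and 5.65 in the others, and the median P score was 10.3 against 9.90. The median length was 173 bp in the overlapping peaks and 171 bp in the others, near 1 nucleosome fragment. The median pileup was 13 fragments in the overlapping peaks against 14, over a median background of 1.14 and 1.43. A pileup of 10 or fewer was seen in 130 of 333 (39.0%, 33.8 to 44.5%) against 707 of 2055 (34.4%, 32.3 to 36.5%). A pileup of 13 has an exact Poisson 95% interval of 6.92 to 22.2 fragments, so these are weakly sampled peaks.

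Their spacing was similar too. The next H3K9me3 summit lay a median of 273845 bp away for overlapping peaks and 264363 bp for the others. Another H3K9me3 summit stood within 10 kb of 33 of 333 (9.91%, 6.92 to 13.6%) against 175 of 2055 (8.52%, 7.34 to 9.81%). By chromosome, the overlapping share ran between 6 of 94 peaks on chromosome 13 (6.38%, 2.38 to 13.4%) and 10 of 47 on chromosome 19 (21.3%, 10.7 to 35.7%), with intervals that overlap. On the X chromosome it was 6 of 65 (9.23%, 3.46 to 19.02%). No test was made of spacing or chromosome.

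The strength of the H3K9me3 peak went with overlap at the top of the list alone. Below a P score of 10, 165 of 1202 peaks overlapped (13.7%). Between 10 and 20 it was 146 of 1096 (13.3%), and between 20 and 50 it was 10 of 75 (13.3%). From 50 upwards it was 12 of 15 (80.0%, 51.9 to 95.7%). All 15 of these strongest peaks also had a high control background, so strength and background cannot be told apart there.

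A background of 20 or more was called high. At the caller's P ceiling of 323.3 only lower bounds of pileup and background are known, and the 3 H3K9me3 peaks there were high by those bounds. In all 18 of 2388 H3K9me3 peaks (0.754%) had a high background, and 15 of them overlapped another list (83.3%, 58.6 to 96.4%). Of the 2370 with lower background, 318 overlapped (13.4%, 12.1 to 14.9%). The 3 high-background peaks without overlap lay beside ones with it: chr17:39983537-39983688, chr2:98505205-98505359 and chr2:98506723-98507049. High background means that the control level inferred around the position was high. Control reads were not examined, and the part of background in the overlap was not tested.

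**Figure D3:**
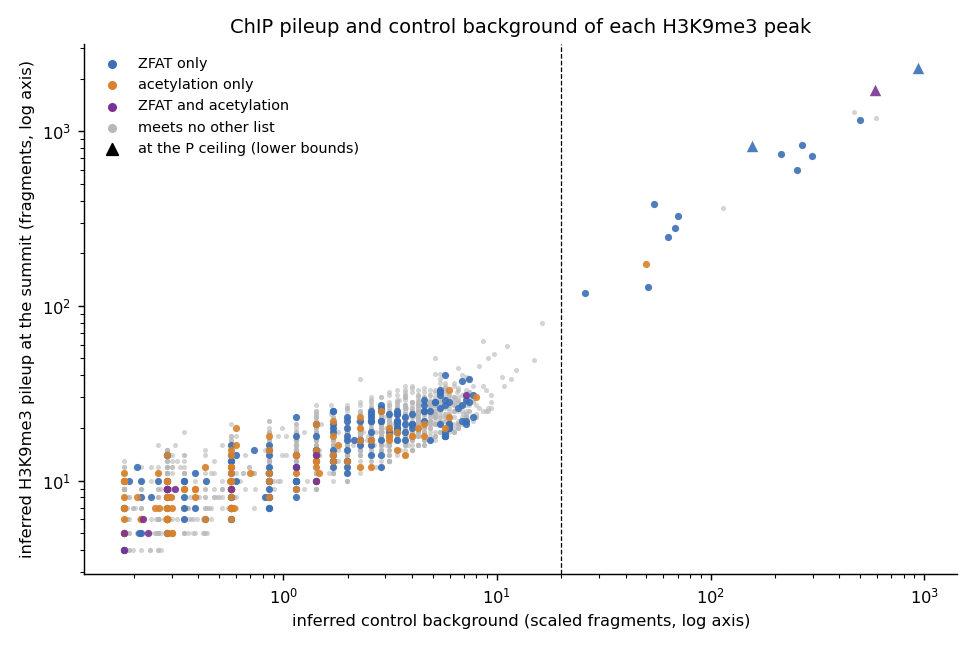
Inferred H3K9me3 pileup against inferred control background for all 2388 H3K9me3 peaks, both on log axes, coloured by the lists met; the dashed line marks a background of 20 and triangles are lower bounds. To the right of the line 15 of 18 peaks are coloured, and to its left coloured peaks reach a pileup of 40 and a background of 7.99, and grey peaks 80 and 16.3.

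The share of H3K9me3 peaks met by floxed ZFAT and by floxed H3K9ac/K27ac ran in opposite directions along this background. Floxed ZFAT met 18 of 1042 H3K9me3 peaks with background under 1 (1.73%, 1.03 to 2.72%). It met 35 of 1101 at 1 to 5 (3.18%, 2.22 to 4.39%), 14 of 227 at 5 to 20 (6.17%, 3.41 to 10.1%) and 10 of 18 at 20 or more (55.6%, 30.8 to 78.5%). Floxed H3K9ac/K27ac met 62 of 1042 under 1 (5.95%, 4.59 to 7.56%), 39 of 1101 at 1 to 5 (3.54%, 2.53 to 4.81%) and 4 of 227 at 5 to 20 (1.76%, 0.482 to 4.45%). At 20 or more it met 0 of 18, with an exact upper limit of 18.5%. B6 ZFAT called against input met 5.66%, 5.36%, 7.49% and 55.6% of the peaks in these bands. The first 3 of its intervals overlap one another. B6 ZFAT against IgG met 1.06%, 0.272%, 0% and 16.7%. Lck-Cre H3K9ac/K27ac met 17 of 1042 under 1 (1.63%, 0.953 to 2.60%) and 2 of 1101 at 1 to 5 (0.182%, 0.0220 to 0.655%). In the bands above it met 1 of 227 (0.441%) and 2 of 18 (11.1%). A steady rise like that of floxed ZFAT over the first 3 bands was not seen in either B6 list. Lck-Cre H3K9ac/K27ac also declined between the first 2 bands, and its counts above are too few to show a trend.

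Lck-Cre ZFAT, from the cells in which Cre is designed to remove Zfat, met H3K9me3 only at high background. It met 8 of 18 such peaks (44.4%, 21.5 to 69.2%) and 0 of 2370 others, with an exact upper limit of 0.156%. Because it holds 108 peaks in all, the smallest number of any list, few overlaps could have been seen.

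**Figure D4:**
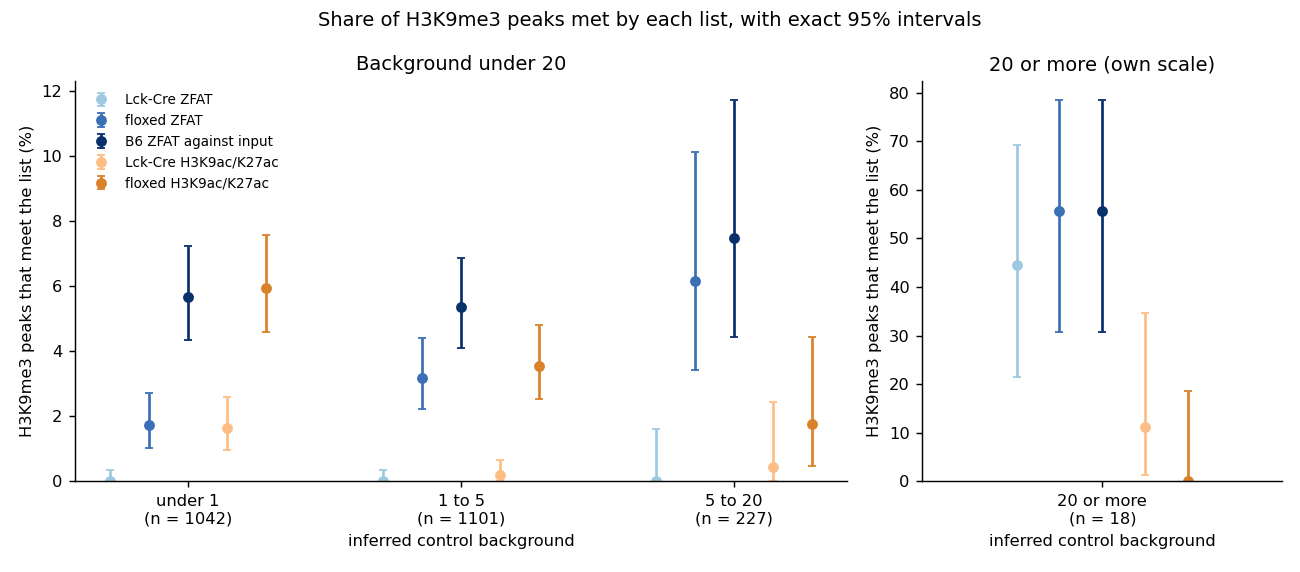
Percent of H3K9me3 peaks met by the other lists, without B6 ZFAT against IgG, in 4 bands of inferred control background. Points are shares, bars are exact 95% intervals, and the right panel has its own scale. Floxed ZFAT runs up, with shares between 1.73% and 6.17% over the first 3 bands, while floxed H3K9ac/K27ac runs down, with shares between 5.95% and 1.76%.

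The classes differed in background too. Peaks that met ZFAT only had a median background of 1.71 and a median pileup of 15.5. Those that met acetylation only had 0.571 and 11, and those that met both had 0.285 and 9. The median fold was 5.20 in the ZFAT class, 6.05 in the acetylation class and 5.91 in the class that met both. All of these medians are over peaks of the single H3K9me3 library.

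Among the high-background peaks, ZFAT was called in several libraries at once. The longest H3K9me3 peak, chr17:39980618-39983317, spans 2700 bp and had 830 fragments at its summit over a background of 268 (fold 3.09). Lck-Cre ZFAT placed 3 peaks inside it, with folds of 1.56, 1.43 and 1.64. Floxed ZFAT placed 1 peak over nearly its whole length, with 617 fragments over 184 (fold 3.35). B6 ZFAT placed 2, with folds of 3.73 and 3.67. Per 1000000 inferred ChIP fragments, the pileups were 454, 400.0 and 428 in Lck-Cre, 409 in floxed and 912 and 809.5 in B6 cells. The backgrounds on that scale were 291, 279 and 260 in Lck-Cre, 122 in floxed and 243 and 220 in B6 cells. The Lck-Cre peaks thus lay over a higher background than the floxed peak at a similar pileup, and had a lower pileup than the B6 peaks at a similar background.

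Lck-Cre ZFAT was called at one of the 2 overlapping neighbours. At chr17:39985123-39985750 the fold was 2.44 for H3K9me3, 1.35 for Lck-Cre ZFAT, 2.41 for floxed ZFAT and 2.72 for B6 ZFAT. At chr17:39980014-39980225 it was 3.42 for H3K9me3, 3.34 for floxed ZFAT and 3.58 for B6 ZFAT, with no Lck-Cre peak. At all 3 places the floxed H3K9me3 and floxed ZFAT folds lay close together.

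At a pair of other places the Lck-Cre folds were well above these, and at one of them above the floxed fold. At chr9:3019110-3019434, near the start of the chromosome, H3K9me3 had a fold of 2.49, with 128 fragments over a background of 50.8. Lck-Cre ZFAT had a fold of 13.96 there, with 182 fragments over 12.1. Floxed ZFAT had a fold of 7.03, with 178 over 24.5, and B6 ZFAT 6.56, with 206 over 30.5. The exact Poisson intervals of the Lck-Cre and floxed pileups, 157 to 210 and 153 to 206, overlap; these are raw counts of libraries of 1350000 and 1510000 inferred fragments. At chr16:11144121-11144294 the fold was 3.87 for H3K9me3, 4.31 for Lck-Cre ZFAT, 5.48 for floxed ZFAT and 8.39 for B6 ZFAT. Lower Lck-Cre folds were seen at other high-background peaks. At chr5:147072580-147072920 the fold was 4.05 for H3K9me3, 2.42 for Lck-Cre ZFAT and 6.04 for floxed ZFAT, and at chr9:35112837-35113117 it was 2.33 for H3K9me3 and 1.85 for Lck-Cre ZFAT. Why ZFAT peaks were called in Lck-Cre cells at these positions was not tested.

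On chromosome 2 the peak chr2:98507224-98507472 met 4 lists, more than any other H3K9me3 peak. It reached the P ceiling, with at least 1717 H3K9me3 fragments and a fold of 2.92. It was met by Lck-Cre ZFAT at a fold of 1.96, by B6 ZFAT at 1.86 against input and 1.62 against IgG, and by Lck-Cre H3K9ac/K27ac at 1.54. Pileups of 2768 to 3130 in these libraries stood over backgrounds of 1413 to 2038. Its neighbour chr2:98502721-98502961, with at least 2303 fragments and a fold of 2.47, was met by Lck-Cre ZFAT at 2.17 and by B6 ZFAT against IgG at 2.51. The H3K9me3 backgrounds at these places were at least 588 and 932 scaled fragments.

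The strongest high-background peaks by fold lay at the start of chromosome 11 and on chromosome 16. At chr11:3035533-3035801 H3K9me3 had a fold of 6.90, with 382 fragments over 54.5, against 2.30 for floxed ZFAT, with 172 over 74.1. B6 ZFAT had a fold of 3.90 there. At chr11:3093063-3093602 the fold was 5.29 for H3K9me3, 2.53 for floxed ZFAT and 4.17 for B6 ZFAT. At both, the H3K9me3 fold exceeded that of both ZFAT libraries. At chr16:57391594-57391775 the order was the reverse, with 4.59 for H3K9me3 against 6.39 for floxed ZFAT and 5.76 for B6 ZFAT. The peak chr6:103599115-103599276 met only the B6 list called against IgG, with a fold of 2.35 for H3K9me3 against 3.83 for ZFAT.

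Away from high background, overlap with ZFAT rested on few fragments on both sides, as did most peaks of these lists. The 67 floxed ZFAT partners of low-background H3K9me3 peaks had a median pileup of 11 and at most 17 fragments. Their median P score was 8.93, against 8.41 for the 1642 floxed ZFAT peaks elsewhere, whose median pileup was 9. The 135 B6 partners at low background had a median pileup of 6 and a median P score of 8.85, against 6 and 8.57 for B6 peaks elsewhere. These low-background partners had medians near those of their own lists. With high background included, 14 of 77 floxed partners (18.2%, 10.3 to 28.6%) and 16 of 146 B6 partners called against input (10.96%, 6.40 to 17.2%) were in the top 10% of their list by P score. All 10 Lck-Cre ZFAT partners lay at high-background peaks, with a median pileup of 539 against 4 elsewhere, 4 of them in the top 10% and 0 in the lower 50% of their list.

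At low background the floxed and B6 partners seldom met a ZFAT peak of another library, and few floxed or B6 peaks elsewhere did. Of the 67 floxed ZFAT partners at low background, 2 met a B6 peak called against input (2.99%, 0.364 to 10.4%) and 0 met an Lck-Cre ZFAT peak, with an exact upper limit of 5.36%. Elsewhere 131 of 1642 floxed ZFAT peaks met a B6 peak (7.98%, 6.71 to 9.40%), and over the whole floxed list it was 8.26%. Elsewhere 26 of 1642 met an Lck-Cre peak (1.58%, 1.04 to 2.31%), and over the whole list 1.8%. At high background 9 of 10 floxed partners met a B6 peak and 5 of 10 an Lck-Cre peak. The low-background intervals of the floxed partners include the values elsewhere for both lists. Of 135 B6 partners called against input at low background, 2 met a floxed ZFAT peak (1.48%, 0.180 to 5.25%). Elsewhere 134 of 1854 did (7.23%, 6.09 to 8.50%), and 7.3% of the list, so these intervals do not overlap.

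The 2 low-background sites with ZFAT in both floxed and B6 cells were looked up after their values were seen. At chr6:131518571-131518756 H3K9me3 had 14 fragments over 1.14 (fold 7.01), floxed ZFAT 14 over 0.204 (fold 12.5) and B6 ZFAT 9 over 0.0680 (fold 9.36). At chr14:85646440-85646591 the folds were 5.90 for H3K9me3, 5.09 for floxed ZFAT and 8.57 for B6 ZFAT. Neither had an Lck-Cre ZFAT peak or an acetylation peak.

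The acetylated share was lower among ZFAT peaks at H3K9me3 than among ZFAT peaks elsewhere, by counts and without a test. Of the 77 floxed ZFAT partners, 2 met a floxed H3K9ac/K27ac peak (2.60%, 0.316 to 9.07%), against 441 of 1642 elsewhere (26.9%, 24.7 to 29.1%) and 25.8% of the list. Of the 146 B6 partners called against input, 7 did (4.79%, 1.95 to 9.63%), against 377 of 1854 elsewhere (20.3%, 18.5 to 22.2%) and 19.2% of the list. The intervals of partners and other peaks do not overlap in either library. Since the partners were chosen by meeting H3K9me3, and H3K9me3 itself rarely met acetylation, this restates in part how few H3K9me3 peaks met acetylation.

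The B6 partners also depended on the control. Of the 146 B6 partners called against input, 7 were called against IgG too (4.79%, 1.95 to 9.63%), against 283 of 1854 elsewhere (15.3%, 13.7 to 17.0%) and 14.5% of the list. Of the 17 partners called against IgG, 7 were called against input (41.2%, 18.4 to 67.1%), against 283 of 410 elsewhere (69.0%, 64.3 to 73.5%) and 67.9% of the list. Both lists come from the same B6 ChIP library. The strongest low-background peak that met a B6 list and no floxed ZFAT or acetylation list, chr15:46816084-46816266, had 23 H3K9me3 fragments over 1.14 (fold 11.2), and 7 B6 ZFAT fragments over 0.0793 (fold 7.41).

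Acetylation peaks that met H3K9me3 had low pileups for their lists, and those of the floxed list were weak by every measure given here. The 105 floxed H3K9ac/K27ac partners had a median pileup of 10 fragments, against 38 for the other 12911 floxed peaks, and a median P score of 10.7 against 26.0. Their median length was 182 bp against 292 bp, and their median fold was 6.63 against 8.64. By P score 98 of 105 (93.3%, 86.7 to 97.3%) fell in the lower 50% of the list and 0 in the top 10%, with an exact upper limit of 3.45%. The 22 Lck-Cre partners had a median pileup of 6 against 18 for the other 2203 Lck-Cre peaks. Their median fold of 5.67 was above the 4.86 elsewhere, their median P score was 9.07 against 9.51, and 12 of 22 (54.5%, 32.2 to 75.6%) were in the lower 50% by P score.

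They also stood apart from other acetylation. The next floxed H3K9ac/K27ac summit lay a median of 33890 bp from the 105 partners and 12171 bp from the other peaks. Another one lay within 5 kb of 18 of 105 (17.1%, 10.5 to 25.7%) against 4798 of 12911 (37.2%, 36.3 to 38.0%). Acetylated promoters and enhancers are commonly covered by several neighbouring acetylated nucleosomes, which is background knowledge about the mark and not a result of these lists.

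**Figure D5:**
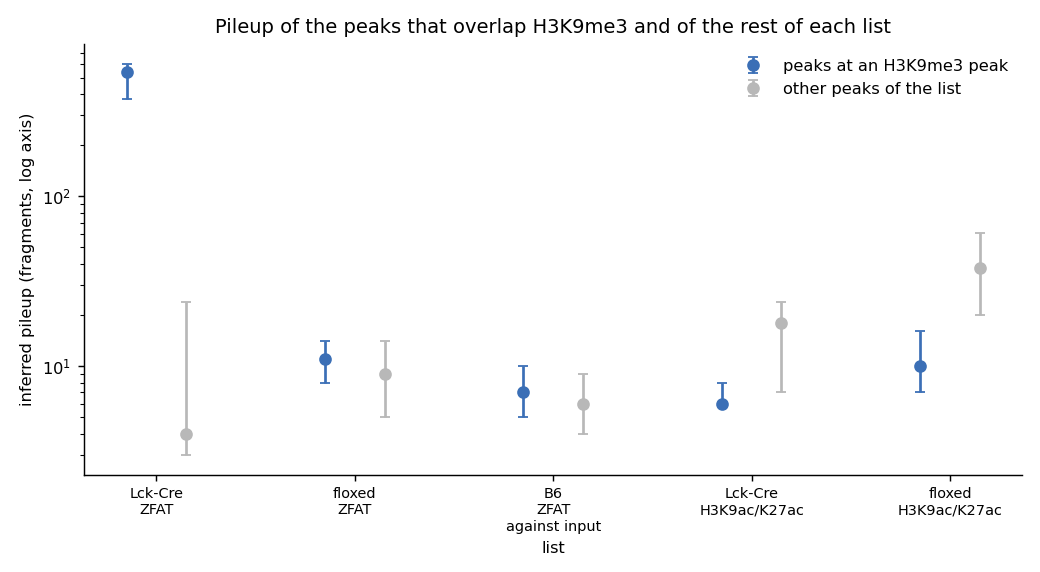
Inferred pileup, on a log axis, of the peaks of 5 lists that overlap an H3K9me3 peak (blue, left) and of the rest of the same list (grey, right); points are medians and bars run between the lower and upper quartiles over peaks. The floxed H3K9ac/K27ac partners sit at 10 against 38 fragments, the Lck-Cre H3K9ac/K27ac partners at 6 against 18, the floxed and B6 ZFAT partners near their lists, and the Lck-Cre ZFAT partners, all at high background, at 539 against 4.

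Few of these acetylation peaks were found in both conditions. Of the 22 Lck-Cre partners, 2 met a floxed H3K9ac/K27ac peak (9.09%, 1.12 to 29.2%), against 1667 of 2203 Lck-Cre peaks elsewhere (75.7%, 73.8 to 77.4%) and 75% of the whole list. Within the lower 50% of the Lck-Cre list by P score, 0 of 12 partners did, with an exact upper limit of 26.5%, against 663 of 1104 elsewhere (60.1%, 57.1 to 63.0%). The gap was thus present among low-scoring Lck-Cre peaks as well.

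The floxed list read differently. Of the 105 floxed partners, 2 met an Lck-Cre peak (1.90%, 0.232 to 6.71%), against 1598 of 12911 elsewhere (12.4%, 11.8 to 13.0%) and 12.3% of the whole list. Within the lower 50% by P score it was 2 of 98 partners (2.04%, 0.248 to 7.18%) and 186 of 6409 elsewhere (2.90%, 2.50 to 3.34%), so the interval of the partners includes the value of other weak floxed peaks. The comparison within the lower 50% was added after the data were seen.

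The 2 sites acetylated in both conditions, looked up after their values were seen, were chr13:67174230-67174400 and chr14:77939511-77939661. At the chromosome 13 site H3K9me3 had a fold of 7.002 with 8 fragments, Lck-Cre H3K9ac/K27ac 6.32 with 6 and floxed H3K9ac/K27ac 4.25 with 4. At the chromosome 14 site the folds were 4.67 for H3K9me3, 7.73 for Lck-Cre H3K9ac/K27ac and 4.95 for floxed H3K9ac/K27ac. In both, the Lck-Cre fold was the higher of the acetylation folds, on 6 and 9 fragments.

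The strongest H3K9me3 peak that met floxed acetylation and no ZFAT list was chr17:40749977-40750194, with 20 fragments over 0.603 (fold 13.1). Its partner had 11 H3K9ac/K27ac fragments over 0.176 (fold 10.2), and the summits were 46 bp apart. Next came chr17:49593866-49594061, with a fold of 10.2 for H3K9me3 and 5.95 for acetylation. At chr9:21574438-21574595 the fold was 10.6 for H3K9me3 and 8.56 for acetylation, and at chr3:58440491-58440682 it was 9.07 for H3K9me3 and 9.36 for acetylation. At chr7:29872194-29872556 the H3K9me3 fold was 8.48, on 22 fragments, and the acetylation fold 4.67, on 10. These 5 sites had between 16 and 22 H3K9me3 fragments and between 10 and 13 acetylation fragments, with both summits at most 46 bp apart.

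A different site had the most H3K9me3 enrichment at an Lck-Cre acetylation peak. At chr2:164461315-164461494 H3K9me3 had a fold of 11.7 with 14 fragments, against 4.72 with 6 fragments for Lck-Cre H3K9ac/K27ac. At chr10:72430260-72430466, with the same H3K9me3 fold of 11.7, the partner was a B6 ZFAT peak of 3 fragments (fold 3.81). The peak chr5:68950337-68950618, which also met B6 ZFAT against input, tied with these on H3K9me3 P score and fold, with 14 fragments. It fell outside the 3 peaks named for highest fold by order alone. The 1 Lck-Cre acetylation partner at high background beside the chromosome 2 peak was chr15:74917080-74917387, where H3K9me3 had a fold of 3.44 and Lck-Cre H3K9ac/K27ac 2.89.

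At all 14 H3K9me3 peaks that met both a ZFAT and an acetylation list, the ZFAT and acetylation peaks also shared bases with each other, between 113 and 232 bp. These were places where 3 antibodies gave overlapping peaks. The H3K9me3 peaks there had a median length of 162 bp and a longest one of 302 bp. Apart from chr2:98507224-98507472, their H3K9me3 pileups ran between 4 and 31 fragments, with a median of 9. None of the 14 met both acetylation lists: 4 met the Lck-Cre list and 10 the floxed list.

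At chr4:142889285-142889452 H3K9me3 had a fold of 7.78 with 9 fragments, B6 ZFAT 5.10 against input and 6.15 against IgG with 6, and Lck-Cre H3K9ac/K27ac 6.32 with 6. The same H3K9me3 fold, also on 9 fragments, was seen at chr6:83577039-83577340, where B6 ZFAT had 4.58 and floxed H3K9ac/K27ac 7.65. It was seen again at chr9:16671119-16671294, where floxed ZFAT had 6.64 and Lck-Cre H3K9ac/K27ac 4.86. Each value rests on 6 to 9 fragments, so the order of the antibodies at these sites is not fixed by the counts.

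At chr2:32467926-32468084 all 3 antibodies came from floxed cells, and their values were alike. H3K9me3 had 14 fragments over 1.43 (fold 6.18), ZFAT 13 over 1.36 (fold 5.93) and H3K9ac/K27ac 14 over 1.35 (fold 6.37). At chr4:147950008-147950160 the fold was 7.63 for H3K9me3, 6.15 for B6 ZFAT against IgG and 8.26 for floxed H3K9ac/K27ac. At chr2:35492393-35492550 it was 6.37 for H3K9me3, 6.24 for floxed ZFAT and 6.32 for Lck-Cre H3K9ac/K27ac. None of the 3 sites showed 1 antibody standing far above the others.

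At chr11:3027492-3027650 the background was higher, at 7.13 for H3K9me3 with 31 fragments (fold 3.94). Floxed H3K9ac/K27ac was near it, with 34 fragments over 7.45 (fold 4.14), while B6 ZFAT had 25 over 1.12 (fold 12.3). At chr11:75258870-75259034 the fold was 6.07 for H3K9me3, 4.49 for B6 ZFAT and 4.67 for floxed H3K9ac/K27ac, whose summit lay 159 bp from that of H3K9me3. At chr17:78926359-78926510 the H3K9me3 fold was 5.74, with B6 ZFAT at 5.71 against input and floxed H3K9ac/K27ac at 4.81, each on 5 or 6 fragments. Among the 10 strongest peaks of this class, chr2:32467926-32468084 alone had all 3 antibodies from the same genotype.

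Number of libraries met was itself related to background. Of the 15 overlapping peaks with high background, 3 met 1 library, 7 met a pair of libraries and 5 met 3. Of the 318 with lower background, 301 met 1 library (94.7%, 91.6 to 96.9%), 17 met a pair and 0 met 3, with an exact upper limit of 1.15%. Overlap that recurred in 3 libraries was thus seen at high background alone in these lists.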

How the data were processed

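Peak lists in mm9 were analysed as deposited. The authors called them with MACS, per the submitters' processing notes, in which SAMtools 0.1.18, Trimmomatic 0.22 and CASAVA 1.8.1 are listed too. An aligner was not given in the sources used here. Each list, per the file headers, used a 150 bp fragment, a p cutoff of 1e-05, a dynamic local background, 5000 bp padding and a genome of 1870000000 bp. Peaks were called per library, and which control served the Lck-Cre and floxed lists is not stated in their headers. Per the file headers, the deposited P score is −log10 of the caller's p, and the deposited fold is a ratio of ChIP to local background. The deposited Q score, also a −log10 value, was not used.

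Overlap of at least 1 bp used 1-based closed coordinates. A whole pileup k and a background b were found for every peak below the ceiling such that the fold is (k + 1)/(b + 1) and the P score is the Poisson tail, within 0.0001; 1 H3K9me3 peak had more than 1 solution. This step was checked on simulated data, which did not cover the highest backgrounds or the lowest folds of these lists. The lowest background of a list, spread over the genome, gave the inferred depth. Analysis used Python 3.11.15, pandas 2.3.3 and scipy 1.17.1.

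The regions, classes and lists were chosen with earlier results of these data known. Named peaks were ranked by P score, with ties by fold: the 5 that met the most lists, the 5 strongest with floxed ZFAT and no acetylation, the 5 strongest with floxed acetylation and no ZFAT, the 10 strongest with both, the 3 strongest with B6 ZFAT and neither floxed ZFAT nor acetylation, the 3 strongest with an Lck-Cre list, and the 3 of highest fold under a background of 20. Others are named as just inside or outside the rule, as high-background peaks, or as chosen after their values were seen. Gene annotation and sequence of mm9 were not used here, so the peaks have no gene names, gene and marker lists were not applied and the thymocyte label was not checked. Alternatives changed the overlap rule, score, fold and background limits, the B6 control, merging of neighbours and the libraries included.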

Additional observations from a re-analysis of the deposited data

How the results depend on the processing

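Stricter limits in both lists lowered the counts of H3K9me3 overlap. At P scores of 10 and above, 99 of 1186 peaks met any other list, 74 met ZFAT, 27 met acetylation and 2 met both, against 333, 222, 125 and 14 of 2388 as reported. With 20 or more it was 13, 13, 1 and 1 of 90, and with a fold of 5 or more 153, 85, 73 and 5 of 1605; fewer peaks enter by construction. Keeping B6 peaks only where both B6 lists hold one left 203 with any list, 86 with ZFAT and 8 with both. Leaving out libraries was chosen after seeing the data. Without the B6 ZFAT library the counts were 200 for any list, 80 for ZFAT and 5 for both. Without the floxed H3K9ac/K27ac library they were 22 for acetylation and 4 for both. With a P score of 10 or more in both lists, the median P score was 13.5 and the median fold 6.90, against 10.3 and 5.48 as reported. Of the other alternatives, 28 planned and 11 added stayed within 1.5 times the reported count or within the spread over peaks. Among them, at least 50% cover of the H3K9me3 peak gave 311, a summit inside the other peak 315, and leaving out high background 318. The low-background overlapping peaks had a median pileup of 13 fragments, and no alternative changed the depth. No paired analysis was possible because each ChIP group has 1 library and no result comes from a test.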

Other observations

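Of the 333 overlapping H3K9me3 peaks, 9 start in the first 4 Mb of a chromosome (2.70%, 1.24 to 5.07%), against 38 of the other 2055 (1.85%, 1.31 to 2.53%). Of these 9, 5 lie on chromosome 11, where chr11:3059722-3059888 met Lck-Cre H3K9ac/K27ac with an H3K9me3 fold of 4.90 and 33 fragments, and chr11:3917225-3917389 met B6 ZFAT against input with an H3K9me3 fold of 3.68 and 31 fragments. Lengths above 350 bp were seen in 18 of 333 overlapping peaks (5.41%, 3.23 to 8.41%) and 103 of 2055 others (5.01%, 4.11 to 6.05%).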
